A study of Homo sapiens with 4 samples.

Results

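Small RNA silencing rests on a short chain of proteins, and the transcripts of 10 of them were followed in RKO cells carrying a hairpin against CHD7. They are AGO1, AGO2, AGO3, AGO4, DICER1, DROSHA, DGCR8, TNRC6A, TNRC6B and XPO5. These were picked by gene symbol and not by their values, although earlier results of these data were known. All 10 were among the 15357 genes listed, and all 10 were among the 11955 genes that passed the filter on low counts. None of the 10 was called (0 of 10, where called means an adjusted p under 0.05 with a fold change of at least 1.5), against 2.88% of all genes tested. DICER1 alone passed the adjusted p without the fold requirement (1 of 10, against 11.5% of all genes tested). It rose 1.27-fold (95% interval 1.11 to 1.44) and no longer passed in 5 of 14 alternative fits. AGO3 and AGO4 had the lowest values relative to control, at 0.777-fold and 0.817-fold, and neither passed the adjusted p.

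In the canonical pathway, the nuclease DROSHA and its RNA-binding partner DGCR8 form the Microprocessor, which releases a hairpin from the primary transcript in the nucleus. XPO5 carries the hairpin to the cytoplasm, DICER1 cuts it to a duplex, and an Argonaute protein keeps 1 strand as its guide. TNRC6 proteins bind the Argonaute and recruit the enzymes that shorten poly(A) tails and repress the target. A short hairpin expressed from a vector resembles the pre-miRNA, so it uses export, dicing and Argonaute loading in common with the cell's own microRNAs, and its guide strand can also pair with other messages through the seed, bases 2 to 8.

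RKO cells are an established line from a human colorectal carcinoma. Total RNA was taken from cells stably infected with lentivirus, and libraries were made on oligo-dT beads. The 2 control libraries are titled vector, while the treatment notes speak of a control shRNA, so whether the control cells carried a hairpin is given differently in different labels. The 2 knockdown libraries are titled shCHD7_2 and carry a single hairpin against CHD7, a chromatin remodeller. Loss of CHD7 and other effects of that hairpin therefore cannot be told apart, and neither can a change in every cell and a change in some of the cells of the culture. No label says that replicates came from separate infections or cultures, so the p-values measure the spread between these libraries only.

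Library totals lay between 15734679 and 16068650 estimated reads. CHD7 itself, the target of the hairpin, had 85.4 and 91.0 CPM (counts scaled to library size by TMM) in the control libraries and 55.5 and 50.1 in the shCHD7_2 libraries, a log2 fold change of -0.74 (SE 0.088; edgeR quasi-likelihood test, adjusted p = 4.15e-06). Of the 30 marker genes checked against the tissue label, EPCAM, KRT8, KRT18, CDX2 and the lysosomal gene CD68, which stood on the immune list, passed the filter, 12 had at most 10 counts in every library, among them the epithelial gene CDH1 and the colonic genes LGR5 and KRT20, and 13 had no row. The 2 shCHD7_2 libraries stood apart from each other by transcript length. With genes in 4 equal bins of mRNA length, replicate 1 exceeded replicate 2 in 22.9% of the genes in the shortest bin and in 75.8% in the longest, while in the control libraries the shares ran the other way, from 61.3% to 32.1%. The machinery mRNAs are long, with a median of 9384.5 bases, against a median of 6752 in the longest bin. Replicate 1 exceeded replicate 2 in 10 of 10 of them among the shCHD7_2 libraries and in 2 of 10 among the controls, a pattern seen after the values were known. Between the groups, the median log2 difference in the 4 bins was 0.0068, 0.0076, 0.0041 and -0.018, from shortest to longest, and the part of length in the single genes was not tested.

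Per transcript length, the machinery was not expressed evenly. In FPKM, which divide fragments by transcript length and library depth, XPO5 was the most abundant in the control libraries, with a mean of 36.0, followed by AGO2 with 32.4. DROSHA came next with 12.9, DGCR8 with 11.01, AGO1 with 9.95, DICER1 with 9.54 and AGO4 with 7.49. TNRC6B with 5.63, TNRC6A with 5.42 and AGO3 with 3.70 closed the order (n = 2 for each mean). The median over all genes tested was 12.6 FPKM, so XPO5, AGO2 and DROSHA lay above it and the other 7 below. Neighbours in this order had control values that did not overlap, except AGO1 with DICER1 and TNRC6B with TNRC6A. In the shCHD7_2 libraries DICER1, with a mean of 12.5 FPKM, had a higher mean than DGCR8 with 11.3 and AGO1 with 10.1. Its values (13.5 and 11.5) overlapped those of DGCR8 (11.8 and 10.7). AGO2, with a mean of 36.1 FPKM in these libraries, had a higher mean than XPO5 with 34.2, and their values overlapped too.

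**Figure D1:**
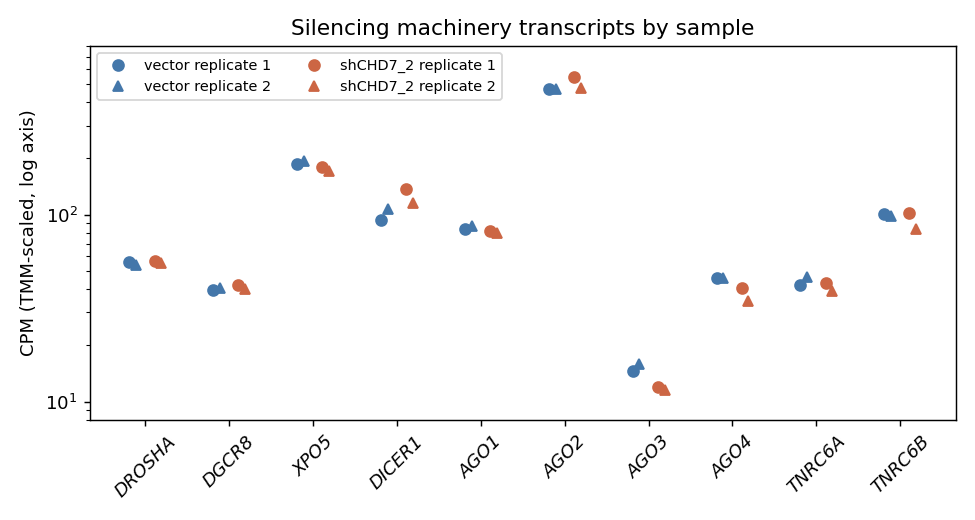
CPM (TMM-scaled, log axis) of the 10 machinery genes, in order of their step in the pathway. Circles are replicate 1 and triangles replicate 2, with control (vector) in blue and shCHD7_2 in red. DICER1 lies higher in both shCHD7_2 libraries (138 and 116) than in both control libraries (93.7 and 107), as does AGO2. AGO1, AGO3, AGO4 and XPO5 lie lower in both.

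The nuclear step came closest to no difference, in DROSHA and DGCR8. DROSHA had 55.8 and 53.9 CPM in the control libraries and 56.6 and 55.0 in the shCHD7_2 libraries. DGCR8 had 39.4 and 40.7 against 42.1 and 40.2. The groups overlapped for both genes, and their log2 fold changes were 0.03 (95% interval -0.15 to 0.20, adjusted p = 0.889) and 0.04 (-0.15 to 0.23, adjusted p = 0.829) in edgeR's quasi-likelihood test. The DROSHA to DGCR8 ratio in FPKM was 1.28 and 1.07 in the control libraries and 1.14 and 1.24 in the shCHD7_2 libraries, so the ratio overlapped between the groups too. XPO5, the export receptor, had 187 and 194 CPM in the control libraries and 179.7 and 171 in the shCHD7_2 libraries. Both shCHD7_2 values lay below both controls, but the log2 fold change of -0.12 (SE 0.075) did not pass (adjusted p = 0.335).

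DICER1, on the minus strand at chr14:95086228-95158010 (GRCh38), was the member that passed. Its CPM was 93.7 and 107 in the control libraries and 138 and 116 in the shCHD7_2 libraries, with no overlap, and its FPKM rose from 9.01 and 10.1 to 13.5 and 11.5. The log2 fold change was 0.34 (SE 0.091; edgeR quasi-likelihood test, adjusted p = 0.0159), and 4.94% of all genes tested passed in the higher direction. DESeq2 also passed it (adjusted p = 0.0306). It no longer passed without control replicate 1 (log2 fold change 0.25, adjusted p = 0.249) and without shCHD7_2 replicate 1 (0.21, adjusted p = 0.139), the library with the higher DICER1 value, and it passed without either of the other libraries. It also did not pass without a filter on low values, in edgeR (adjusted p = 0.205) or in limma on FPKM (adjusted p = 0.212).

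DICER1 is known as a target of microRNAs as well as their maker, in particular of the miR-103/107 family through its 3′ UTR and of let-7 through its coding sequence. Its UTR sites are shown because DICER1 was the only machinery gene that passed. The mature sequences (RefSeq, GRCh38.p14) are printed with the seed, bases 2 to 8, in capitals:
hsa-miR-103a-3p: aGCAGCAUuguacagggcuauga
hsa-let-7a-5p: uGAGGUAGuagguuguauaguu
The match to the first seed is ATGCTGC and that to the second is CTACCTC, searched on the mRNA strand only. The longest annotated DICER1 3′ UTR (GENCODE 29, 4270 bases) holds 5 ATGCTGC words and 0 CTACCTC. Each is shown with 11 bases on either side and the word in capitals, from the stop codon outwards, all on the minus strand:
chr14:95089447-95089475: acacctaaaatATGCTGCagattttataa
chr14:95088846-95088874: tgcttcgtggaATGCTGCatttatatgta
chr14:95087642-95087670: cagtcctaactATGCTGCgttttataata
chr14:95086371-95086399: tttaccatcacATGCTGCagctgtttttt
chr14:95086319-95086347: atacagtaatcATGCTGCagaaatttgca
The word ATGCTGC occurs in 14.1% of the 11688 tested genes for which GENCODE lists a 3′ UTR. It occurs in 28.2% of the 1272 whose UTR is of similar length to that of DICER1 (the shorter at least 0.8 times the longer). At least 5 occur in 3 of those 1272, DICER1 itself included, or 0.236%. Among the other machinery genes, the word occurs in AGO2 (5), AGO1 (3), TNRC6B (3), AGO4 (2) and AGO3 (1). DROSHA, DGCR8, TNRC6A and XPO5 hold none. The microRNAs themselves were not measured. The genes in whose introns the family is encoded are PANK3, PANK2 and PANK1, chosen here after their values were seen. Their log2 fold changes were 0.29 (adjusted p = 0.0985), 0.05 (adjusted p = 0.780) and -0.04 (adjusted p = 0.926) in edgeR, so none of the 3 host transcripts passed.

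None of the 4 Argonautes passed the adjusted p, and their values are given one by one. AGO2 (chr8:140520156-140635619, minus strand), the only one of the 4 known for efficient target cleavage, had 471 and 472 CPM in the control libraries and 545 and 475 in the shCHD7_2 libraries. The higher value came from shCHD7_2 replicate 1, and the log2 fold change of 0.11 (SE 0.076, adjusted p = 0.369) fell to 0.0073 without that library. AGO1 (chr1:35869808-35930528) had 83.8 and 87.2 CPM against 81.8 and 80.3, with a log2 fold change of -0.08 (adjusted p = 0.611) that turned to 0.020 when FPKM replaced the counts. AGO3 (chr1:35930718-36072500) had 14.5 and 15.8 against 12.0 and 11.6. AGO4 (chr1:35808172-35857890) had 45.8 and 46.1 against 40.5 and 34.5. For AGO1, AGO3 and AGO4 both shCHD7_2 libraries lay below both controls, and for AGO2 both lay above them. The groups did not overlap for 53.7% of all genes tested, so such a separation was common.

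AGO3 had a log2 fold change of -0.36 (SE 0.13; edgeR, adjusted p = 0.0818), and AGO4 of -0.29 (SE 0.096; adjusted p = 0.0510). Both therefore missed the adjusted threshold, AGO4 narrowly in edgeR only. In DESeq2 the adjusted p was 0.196 for AGO4 and 0.331 for AGO3. In limma on FPKM with low values filtered and 1 added, it was 0.139 and 0.131. In edgeR without shCHD7_2 replicate 1, the AGO4 log2 fold change was -0.42. Without shCHD7_2 replicate 2 it was -0.18, so the size of the AGO4 difference depended on which knockdown library was kept. AGO4, AGO1 and AGO3 are neighbours in that order on the plus strand of chromosome 1, with 11917 bases between the first pair and 189 bases between AGO1 and AGO3. The estimated counts of AGO1 and AGO3 were not whole numbers in any of the 4 libraries, so some reads had been divided between them and other genes, and their values are less certain for that. The counts of AGO2 and AGO4 were whole.

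As shares of the summed Argonaute FPKM, AGO2 took 61.3% and 59.7% in the control libraries and 66.1% and 65.0% in the shCHD7_2 libraries. AGO4 took 13.6% and 14.3% against 11.4% and 10.6%, and AGO3 took 6.22% and 7.57% against 5.14% and 5.02%. AGO1 took 18.8% and 18.4% against 17.4% and 19.4%. The first 3 shares did not overlap between the groups, and AGO1's did. The shares are parts of the same sum, so they do not count as separate observations. In CPM, 53.7% of all genes tested did not overlap between the groups. An exact two-sided permutation test gave p = 0.333 for each of the first 3, the smallest value that 2 libraries against 2 can give. The sum itself was 52.9 and 54.1 FPKM against 58.6 and 51.6, an overlap.

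**Figure D2:**
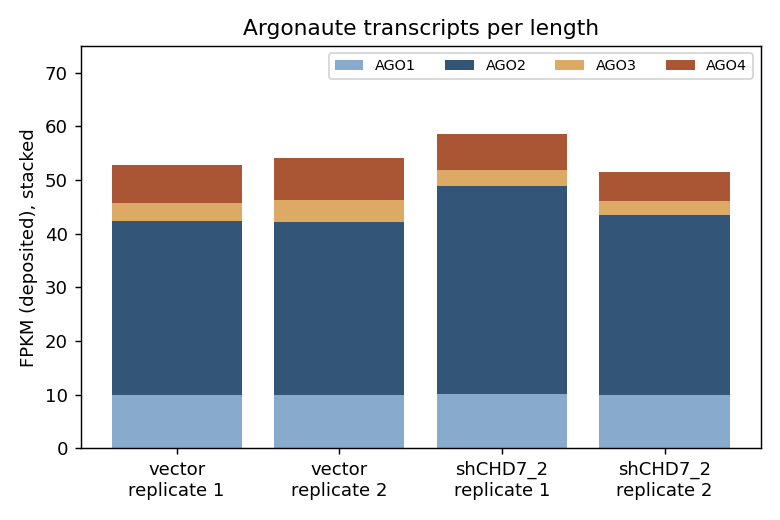
Stacked FPKM of AGO1, AGO2, AGO3 and AGO4 in each library. The sums are 52.9 and 54.1 in the control (vector) libraries and 58.6 and 51.6 in the shCHD7_2 libraries, and the AGO2 block is the largest in all 4.

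The TNRC6 scaffold proteins connect Argonautes to deadenylation. TNRC6A (chr16:24610209-24827632) had 42.1 and 46.3 CPM in the control libraries and 43.0 and 39.3 in the shCHD7_2 libraries. TNRC6B (chr22:40044817-40335808) had 101 and 98.8 against 102 and 83.7. Their log2 fold changes were -0.10 (SE 0.094, adjusted p = 0.534) and -0.11 (SE 0.091, adjusted p = 0.499), with overlapping groups. The TNRC6B value rested on shCHD7_2 replicate 2, without which it was 0.026. TNRC6C, the third paralog and not one of the 10, had 13.5 and 14.7 CPM against 14.8 and 14.1 (log2 fold change 0.04, adjusted p = 0.895). The summed TNRC6 FPKM was 12.3 and 12.8 in the control libraries and 13.2 and 11.2 in the shCHD7_2 libraries, with no separation of the groups.

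Across the 10 genes, 4 log2 fold changes were positive and 6 negative, with a median of -0.09 against 0.00056 over all genes tested. The groups did not overlap in CPM for 6 of the 10 (2 higher and 4 lower), and did not overlap for 53.7% of all genes tested. Of the 10, 1 passed an adjusted p under 0.05, against 11.5% of all genes tested. By unadjusted p under 0.05, 3 passed in edgeR (DICER1, AGO3 and AGO4), against 25.4% of all genes in edgeR. In DESeq2 2 passed, and the share of all genes by unadjusted p was not counted there. The number called was 0 in both. Apart from the DESeq2 counts, which had no background beside them, these shares were near the background. The 95% intervals of 9 of the 10 lay wholly within 1.5-fold in either direction, and that of AGO3, the least abundant, reached 0.642-fold. A difference of 1.5-fold or more was therefore outside the interval for every machinery gene except AGO3.

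**Figure D3:**
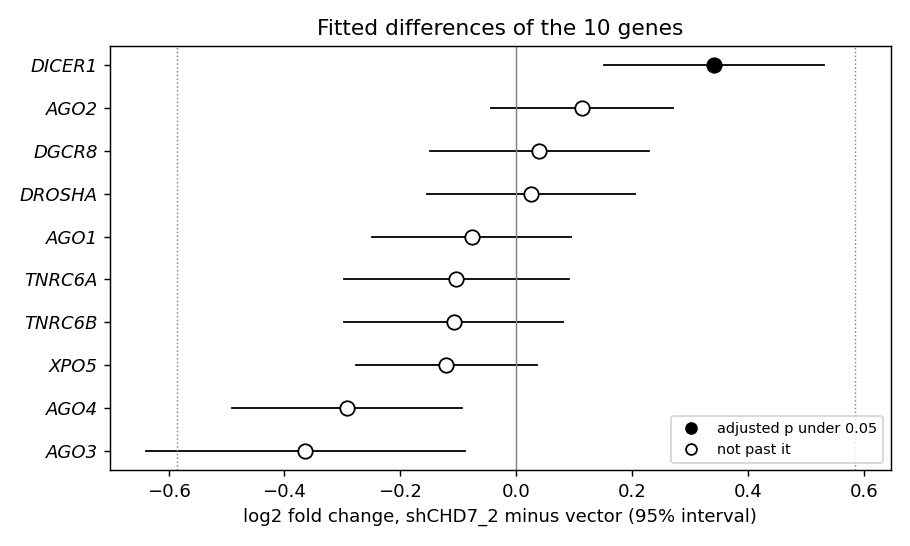
Log2 fold change (shCHD7_2 minus control) of the 10 machinery genes with 95% intervals from edgeR's quasi-likelihood fit. The filled point has an adjusted p under 0.05 and open points do not, and dotted lines mark 1.5-fold. DICER1 (0.34) is the only filled point, and the AGO3 interval alone crosses a dotted line.

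Pairing of a guide strand's seed with 3′ UTRs gives 7-base words shared by affected messages. In an earlier scan of these same data, the word AGCTATT, the word GAAGCTA and the word GCTATTA were found more often in genes that were lower in the shCHD7_2 libraries. They are searched here in the machinery as a description only, since the scan used the same differences. AGCTATT shares 6 bases with GCTATTA and 5 with GAAGCTA, so 1 stretch can hold more than 1 of them. No hairpin sequence was in the sources used here, and whether the words match its seed was not tested. At least 1 word was found in the longest 3′ UTR of 7 of the 10 genes, and 22.3% of the 11688 tested genes with a UTR held one. A context is shown for each gene with a word except AGO2, so that the flanking bases can be compared (GENCODE 29, GRCh38, word in capitals):
AGO1, chr1:35920503-35920531, plus strand: gccagaaagccAGCTATTttgcatttgaa
AGO3, chr1:36066888-36066916, plus strand: agtaaaagagcAGCTATTgctatttgaac
AGO4, chr1:35854559-35854587, plus strand: atgattttatcAGCTATTtcttatatatc
XPO5, chr6:43522668-43522696, minus strand: cgaagtggactGAAGCTAcagtttttagc
TNRC6A, chr16:24823895-24823923, plus strand: cctgtgggaacAGCTATTctctgcacatt
TNRC6B, chr22:40330745-40330773, plus strand: cgttctaggaaGAAGCTAtccgttggata
The printed sites lie 907 (AGO1), 11154 (AGO3), 965 (AGO4), 1183 (XPO5), 99 (TNRC6A) and 7515 (TNRC6B) bases after the stop codon. Whether the cells' transcripts extended to these sites was not tested. AGO1 held all 3 words, TNRC6B all 3, AGO3 and AGO4 2 each, and AGO2, TNRC6A and XPO5 1 each.

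Long UTRs hold any word more often. Among tested genes with a UTR of similar length, a word occurred in 89.2% for AGO3 (16755 bases), 81.4% for TNRC6B, 80.5% for AGO2 and 75.8% for AGO1, so most genes with UTRs that long hold one. The share was 49.1% for AGO4 and for DICER1 (4285 and 4270 bases). It was 29.3% for TNRC6A and 20.2% for XPO5, the genes with the shortest UTRs among those with a word. Since the words were chosen for being frequent in genes with lower values in these libraries, the members' differences are not set against the words here.

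The genes that work beside the machinery were read from 9 lists. Of the 13 nuclear and export partners, 0 passed higher and 2 passed lower, where 6.54% of all genes passed lower. They were DDX5, a helicase of the Microprocessor (636 and 674 CPM in the control libraries, 562 and 529 in the shCHD7_2 libraries, log2 fold change -0.26, adjusted p = 0.0170 in edgeR), and SAFB2, a nuclear protein that assists processing of clustered hairpins (50.3 and 46.1 against 37.2 and 38.4, log2 fold change -0.35). DDX17, the paralog of DDX5, had a log2 fold change of -0.06 and did not pass. DDX5 no longer passed when either control library or shCHD7_2 replicate 2 was left out (adjusted p = 0.0860, 0.343 and 0.0501), and SAFB2 did not pass without control replicate 1 (adjusted p = 0.187). The list's median was -0.10.

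Of 17 Dicer and loading partners, 1 passed, against 11.5% of all genes, and it was lower. This was HSPA8, the constitutive HSP70 chaperone that helps load Argonautes, with 1777 and 1914 CPM in the control libraries and 1543 and 1620.4 in the shCHD7_2 libraries (log2 fold change -0.22, adjusted p = 0.0367). It did not pass when either control library was left out. TARBP2 and PRKRA, the double-stranded RNA-binding partners of DICER1, had log2 fold changes of 0.08 and -0.05 and did not pass. Whether the DICER1 difference exceeded theirs was not tested.

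Of 16 RISC cofactors tested, 1 passed in each direction, against 4.94% of all genes higher and 6.54% lower. EIF4E2, the cap-binding repressor that acts with GIGYF2, had 39.2 and 36.9 CPM in the control libraries and 54.8 and 51.5 in the shCHD7_2 libraries, a rise of 0.48 on the log2 scale (SE 0.091, adjusted p = 0.000909). P4HA1, the catalytic subunit of the prolyl hydroxylase that modifies collagen and also AGO2, had 86.7 and 87.5 against 62.7 and 57.4 (log2 fold change -0.54, SE 0.086). Both still passed the adjusted p when any 1 library was left out. MOV10, an RNA helicase of RISC, had a log2 fold change of -0.07 and did not pass.

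Among 29 deadenylation and decay effectors, 1 rose and 1 fell, against the same 4.94% and 6.54%. BTG2, which binds the deadenylase subunits and is also a p53 target, rose by 0.51 on the log2 scale (14.2 and 13.2 CPM against 20.0 and 19.1). CNOT7, a catalytic deadenylase, had 152 and 163 CPM in the control libraries and 125 and 115 in the shCHD7_2 libraries (log2 fold change -0.39). Neither passed without control replicate 2 (adjusted p = 0.0951 and 0.0841). CNOT1, the scaffold that TNRC6 proteins contact, DDX6 and PABPC1 had log2 fold changes of -0.03, -0.03 and -0.06 and did not pass, and those of CNOT1 and DDX6 turned positive (up to 0.011) when libraries were scaled to their totals or FPKM was used. The median of the list was -0.0024.

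Of 13 genes for tailing and turnover of small RNAs, 2 rose and 1 fell, where 4.94% and 6.54% of all genes did so. ZSWIM8, the receptor of the ubiquitin ligase that degrades Argonautes bound to certain targets and so removes their microRNAs, had 67.8 and 59.8 CPM in the control libraries and 89.6 and 90.7 in the shCHD7_2 libraries. Its log2 fold change was 0.50 (SE 0.087, adjusted p = 0.000474), and it passed in each fit that left out 1 library. TUT1, a terminal uridylyltransferase known for U6 RNA, rose by 0.39 on the log2 scale, and XRN2, a nuclear exonuclease, had a log2 fold change of -0.23 (adjusted p = 0.0495). TUT1 did not pass without control replicate 2 or shCHD7_2 replicate 2, nor XRN2 without either control library or shCHD7_2 replicate 2. LIN28A, the let-7 blocker, was at 0 counts in all 4 libraries.

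Further lists held host transcripts of microRNAs and known let-7 targets. The microRNAs were not measured, so whether silencing changed was not tested by these transcripts. Of the 30 microRNA host transcripts, 13 had no row, among them all 8 host RNAs named for their microRNA. Of the 17 tested 1 passed, against 11.5% of all genes. It was SKA2, which hosts miR-301a and miR-454 (69.6 and 63.0 CPM against 93.2 and 83.4, log2 fold change 0.41, adjusted p = 0.00319), although not without control replicate 2. Among 16 known let-7 targets tested, 2 passed higher and 1 lower, against 4.94% and 6.54% of all genes tested, with a median of 0.09. CDK6, a G1 kinase, was called, with 69.6 and 73.7 CPM in the control libraries and 128 and 103 in the shCHD7_2 libraries (log2 fold change 0.68, SE 0.095; edgeR, adjusted p = 3.35e-05). Without shCHD7_2 replicate 1 its log2 fold change was 0.52, below the 1.5-fold requirement, and without shCHD7_2 replicate 2 it was 0.83. CDK6 did not pass without a filter on low values, in edgeR or in limma on FPKM. DICER1 itself is the other that rose, and CCND2 had a log2 fold change of -0.30 (adjusted p = 0.0129) and did not pass without control replicate 1 or shCHD7_2 replicate 2.

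Sensors of double-stranded RNA bear on whether hairpin RNA was met by an innate response. Of 10 tested, 1 passed, against 11.5% of all genes. TLR3, the endosomal receptor, had 3.29 and 4.24 CPM in the control libraries and 6.36 and 6.20 in the shCHD7_2 libraries, from 51 and 67 against 102 and 99 estimated counts (log2 fold change 0.74, SE 0.19, adjusted p = 0.0141 in edgeR). DESeq2 did not pass it (adjusted p = 0.151), nor did edgeR without control replicate 1 (adjusted p = 0.174). The other 9 did not pass, and among them the kinase gene EIF2AK2, RIGI, IFIH1 and OAS3 had log2 fold changes from -0.24 to 0.31. OAS1, OAS2 and DHX58 had at most 12 counts in any library.

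**Figure D4:**
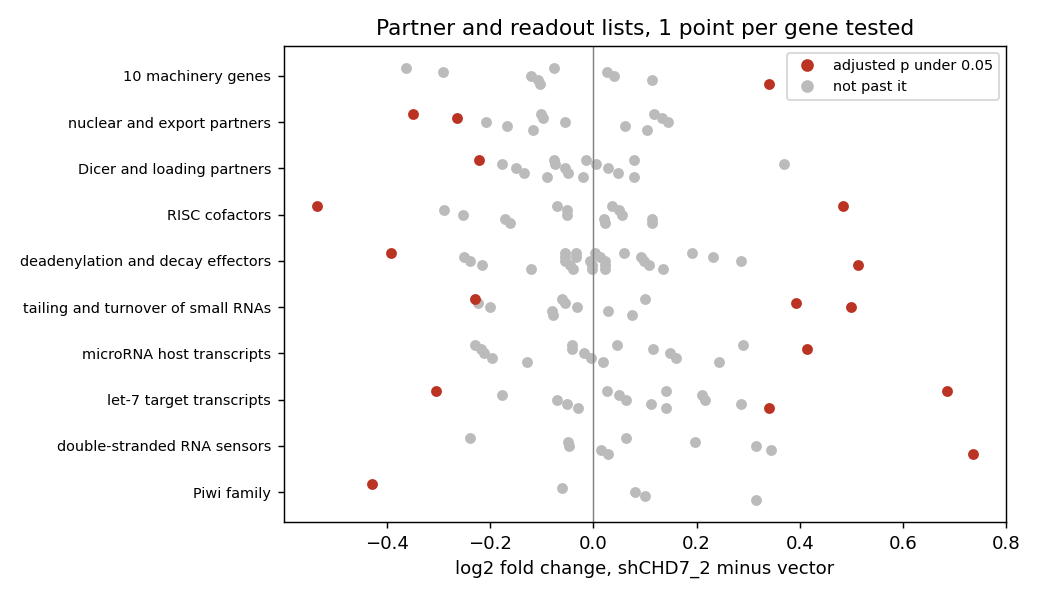
Log2 fold change (shCHD7_2 minus control) of each tested gene in the machinery and the 9 other lists, 1 point per gene. Red points have an adjusted p under 0.05 in edgeR and grey points do not. Each list has between 1 and 3 red points and most of its genes lie near 0, with TLR3 (0.74) and CDK6 (0.68) farthest to the right and P4HA1 (-0.54) farthest to the left.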

How the data were processed

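RNA-seq values of 2 control (vector) and 2 shCHD7_2 libraries were analysed. The authors deposited an estimated count of reads per gene (estimated counts, not normalized) and FPKM values that they had divided by length and depth. The submitters' processing notes name Bowtie2, RSEM, DESeq2 and hg38, with versions, roles and annotation not given in the sources used here. Between 13.6% and 14.7% of count values per library were not whole numbers.

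Counts were rounded, genes filtered with filterByExpr and scaled by TMM in edgeR 4.0.16 (R 4.3.3), and 11955 genes tested by quasi-likelihood, with p-values adjusted over all of them (Benjamini-Hochberg). Called genes had an adjusted p under 0.05 and at least a 1.5-fold change. Standard errors were derived from the F statistic. The fits were tested on simulated data. Replicates of a group differed by more than counting noise (chi-square per gene 3.94 and 6.06). Intervals come from the fit and cover the spread between these libraries.

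The 10 members, the lists and the tests were chosen with earlier results of these data known. Partner genes named are those called or with the smallest adjusted p under 0.05, up to 6 per list, and the closest partners TNRC6C, TARBP2, PRKRA, DDX6, CNOT1, PABPC1, MOV10, DDX5 and DDX17. Alternatives were 2 other scalings, DESeq2 1.42.0, 2 other filters, a replicate block, limma 3.58.1 on log2 of FPKM plus 1 or 0.1, and leaving out each library in turn, with a crossed block added after the data were seen. The longest 3′ UTR of each gene came from GENCODE 29.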

Additional observations from a re-analysis of the deposited data

How the results depend on the processing

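Of 140 refits of the machinery genes (10 genes under 14 alternatives), 127 kept the direction and the side of the threshold. DICER1 no longer passed the adjusted p in 5, with an unfiltered count table (log2 fold change 0.34), unfiltered log2(FPKM + 1) (0.35), the replicate block (0.34, adjusted p = 0.0702) and without control replicate 1 or shCHD7_2 replicate 1, and its values ran from 0.21 to 0.46. AGO1 turned to 0.020 with log2(FPKM + 1), filtered or not, and to 0.022 with log2(FPKM + 0.1), and TNRC6B lay between -0.26 and 0.026 when 1 library was left out. CHD7 missed the threshold only with unfiltered FPKM (-0.51, adjusted p = 0.104) and lay between -0.82 and -0.67 when 1 library was left out. Among partners that did not pass, directions turned for TNRC6C (-0.027 to 0.10 when 1 library was left out), TARBP2 (-0.0040 to 0.17 likewise), PRKRA (0.0046 and 0.0048 with FPKM and pseudocounts of 1 and 0.1), DDX6 (0.011 with library totals, 0.010 and 0.011 with FPKM, -0.13 to 0.052 with 1 library left out), CNOT1 (0.011, 0.0099 and 0.010, and -0.13 to 0.053) and MOV10 (-0.15 to 0.0028 with 1 library left out).

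Of all genes, 344 were called and 1373 passed the adjusted p. DESeq2 gave 219 and 800, no low-count filter 141 and 197, and log2(FPKM + 1) 172 called with the filter, 23 called and 24 passing without it. Leaving out 1 library gave 308 to 380 called and 610 (without control replicate 2) to 1702 (without shCHD7_2 replicate 1) passing, and 0 to 1 of the machinery genes passing. The share of calls that were higher was 52.3%, and 41.6% with DESeq2, 37.6% without the filter and 26.1% with unfiltered FPKM, while no scaling moved the median of all genes by more than 0.044.

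In the partner lists the numbers passing without the filter on counts were 0 for 8 of the 9 lists and 1 for the RISC cofactors, and with unfiltered FPKM 0 in all 9. DESeq2 left 1 nuclear partner, 1 tailing gene, 0 double-stranded RNA sensors and 0 Piwi genes, and its size factors in edgeR gave 2 Dicer partners. Library totals gave 4 decay effectors, 2 host transcripts and 5 let-7 targets. Filtered log2(FPKM + 1) gave 0 nuclear partners and 2 host transcripts, and log2(FPKM + 0.1) gave 0 nuclear partners and 0 Piwi genes. Leaving out 1 library gave 0 to 2 nuclear partners, 0 to 1 Dicer partners, 0 to 4 decay effectors, 1 to 4 tailing genes, 0 to 3 host transcripts, 1 to 4 let-7 targets, 0 to 2 sensors and 0 to 1 Piwi genes. The cause of these changes was not tested.

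The groups share replicate numbers, but same-numbered libraries had deviations that correlated at -0.198 over genes, so the numbers were not taken to pair them. With the replicate block 755 genes passed, with 0 machinery genes, 0 nuclear partners, 0 Dicer partners, 1 tailing gene, 1 let-7 target and 0 Piwi genes. Crossing the numbers, an alternative added after the data were seen, gave 3751 genes passing, with 4 machinery genes, 7 nuclear and 5 Dicer partners, 5 RISC cofactors, 10 decay effectors, 5 tailing genes, 8 host transcripts, 8 let-7 targets and 3 sensors. AGO3, with the fewest counts of the machinery genes, had the widest 95% interval, -0.64 to -0.09, and what part depth had in it was not tested.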

Other observations

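The PIWIL genes encode the Piwi branch of the Argonaute superfamily, which binds germline small RNAs. In RKO cells they had at most 37 counts in any library. Of 15 Piwi pathway genes, 4 had no row, which does not show that they were silent, and 6 had too few counts to be tested. Other genes of the list were expressed. The control mean was 53.4 CPM for TDRD7, 36.9 for PLD6 and 29.7 for TDRKH, and none of these passed. PIWIL3 was at 0 counts in all 4 libraries, PIWIL1 had at most 1 count in any library and PIWIL2 at most 2. PIWIL4 was the only Piwi protein gene tested, with 30 and 25 counts in the control libraries and 37 and 33 in the shCHD7_2 libraries (log2 fold change 0.32, adjusted p = 0.517 in edgeR). Of the 5 genes of the list that were tested, 1 passed, against 11.5% of all genes tested, and it was lower. This was TDRD3, a Tudor-domain protein that works with topoisomerase 3B and is not restricted to the germline. It had 19.3 CPM in both control libraries and 14.4 and 14.3 in the shCHD7_2 libraries (log2 fold change -0.43, SE 0.12, adjusted p = 0.0202), and it did not pass in DESeq2 (adjusted p = 0.136) and without either control library or shCHD7_2 replicate 2. The PIWIL genes were named after their values were seen.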
